A study of Homo sapiens with 8 samples.

Results

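The 10 genes NFKB1, NFKB2, RELB, NFKBIA, TNFAIP3, BIRC3, IL18, IL32, ICAM1 and IL1A encode NF-kappaB subunits, proteins that restrain the pathway, interleukins and an adhesion molecule. They were taken by symbol from the 64253 gene identifiers of the count tables, and all 10 were among the 20305 genes that passed the filter on low counts. RNA-seq of poly(A) mRNA was measured in 8 libraries, 2 for each of 4 groups. The groups were HCT-8, human colon cancer cells sensitive to 5-fluorouracil (5-FU), HCT-8/FU, its 5-FU-resistant counterpart, and HCT-8 cells grown in conditioned medium (CM) from either line. The last pair is labelled CM of HCT-8 and CM of HCT-8/FU and is written here as HCT-8 CM and HCT-8/FU CM. CM was collected after 48 h of culture of the donor cells. How long the HCT-8 cells stayed in it, how HCT-8/FU was selected and whether it is 1 clone were not stated in the sources. The culture medium is named as Ham's medium in the labels and as RPMI medium in the methods. HCT-8 and HCT-8/FU in unconditioned medium are different lines, whereas both CM groups are the same HCT-8 line and differ in the donor of the medium. No group is labelled as treated with 5-FU before collection.

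Totals on genes were 5804124 to 34881349 counts per library. Of all records, 20% to 29.6% were not aligned in replicate 1 of HCT-8 and of HCT-8 CM and in replicate 2 of HCT-8/FU, which were also the 3 shallowest libraries, against 3.58% to 4.43% in the other 5. The 10 colon epithelial markers summed to 9490 to 11800 CPM (counts scaled to the size of the library) and each was above 1 CPM on average. Leukocytes use many of the same genes, but their 8 markers summed to 1.84 to 3.69 CPM, with PTPRC, CD3E and MS4A1 among those at 0 in all 8 libraries. The 8 stromal and endothelial markers summed to 14.5 to 24.6 CPM, led by COL1A1 at 8.19 to 13.8 CPM and PDGFRB at 4.35 to 9.04 CPM, with COL1A2 at 0 throughout. The part of other cells in the results was not tested. In bulk RNA, fewer cells with a transcript and less of it per cell cannot be told apart.

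NF-kappaB dimers are held in the cytoplasm by inhibitors and enter the nucleus when a receptor signal leads to the inhibitor's breakdown. In the canonical arm, dimers of RELA and p50, which is made from the NFKB1 product p105, are released from IkappaBalpha. In the non-canonical arm, the NFKB2 product p100 is cut to p52, which pairs with RELB. Several genes that these dimers turn on encode their own brakes, among them NFKBIA, TNFAIP3 and BIRC3, and others encode signals to neighbouring cells. In colon epithelium the pathway is known for its part in inflammation and in the survival of tumor cells.

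A gene was called differentially expressed (DE) at an FDR of at most 0.05, over all genes tested, and a log2 fold change of at least 0.58 in size, a fold of 1.5. In HCT-8/FU against HCT-8, 4 of the 10 genes were DE. NFKB2, RELB and IL32 were lower and BIRC3 was higher, beside 21.3% of all genes tested that were DE, 13.2% higher and 8.12% lower. In HCT-8/FU CM against HCT-8 CM, BIRC3 was the single DE gene of the 10, where 9.25% of all genes were DE, 7.97% higher and 1.28% lower. In HCT-8 CM against HCT-8, NFKBIA was higher and IL1A lower, where 8.15% of all genes were DE, 3.86% higher and 4.29% lower. The split of calls over all genes moved with the scaling and with single libraries. With replicate 2 of HCT-8 CM as the scaling reference, the HCT-8/FU cells had 15.6% higher and 5.87% lower, and HCT-8/FU CM had 0.621% lower, where 3.02% were lower without replicate 2 of HCT-8 CM and 0.423% without replicate 1. With DESeq2's size factors, 3.04% were higher and 5.36% lower in HCT-8 CM against HCT-8. The difference between the HCT-8/FU and the CM comparison passed both thresholds for NFKB2, RELB and NFKBIA, as it did for 7.69% of all genes. The median log2 fold change of the 10 genes was -0.365, -0.101 and -0.036 in these 3 comparisons in turn, beside 0.008, -0.059 and 0.014 over all genes tested. In the same 3 comparisons, the 2 groups did not overlap for 9, 7 and 9 of the 10 genes. Among the 20305 genes tested they did not overlap for 13198, 12468 and 11018, so separate groups alone do not mark out a gene. The HCT-8/FU and HCT-8/FU CM comparisons share no library, and HCT-8 CM against HCT-8 shares 1 group with each of them.

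**Figure D1:**
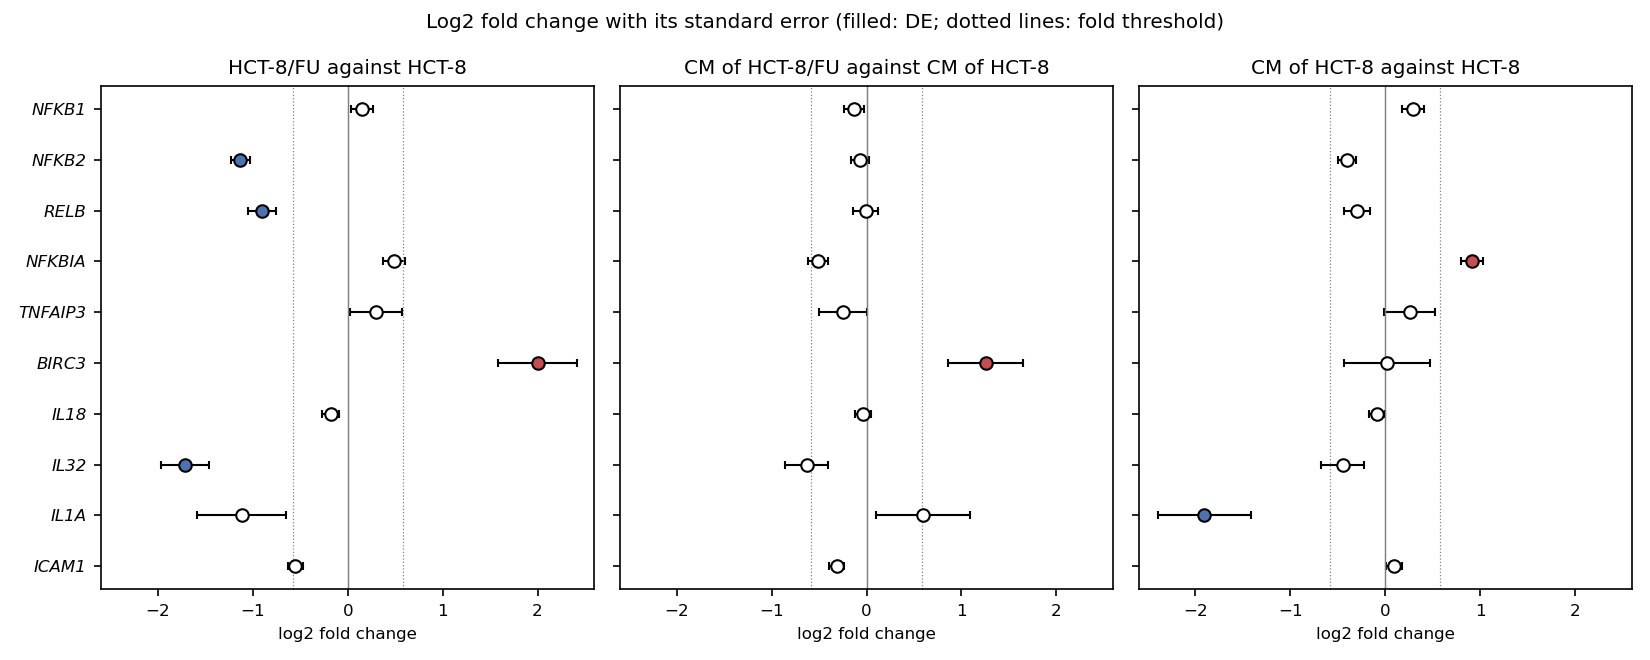
Log2 fold change (horizontal axis) of each of the 10 genes (rows) in 3 comparisons, with its standard error as the bar; filled points were DE, red for higher and blue for lower, and dotted lines mark the fold threshold. NFKB2 at -1.13, RELB at -0.90 and IL32 at -1.72 lay on the lower side in HCT-8/FU against HCT-8, while BIRC3 lay on the higher side there, at 2.00, and in HCT-8/FU CM against HCT-8 CM, at 1.26.

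Per kilobase of exons, so that genes can be compared, ICAM1 was the most abundant of the 10 in HCT-8, at a mean of 39.7 CPM per kb. IL18 followed at 22.1, NFKB2 at 19.2, NFKBIA at 7.54 and RELB at 6.36 CPM per kb. IL32 stood at 2.69, NFKB1 at 1.88, IL1A at 1.23, TNFAIP3 at 0.62 and BIRC3 at 0.235 CPM per kb. Abundance thus spanned the range from well-measured genes to BIRC3 and IL1A, which rested on 15 to 156 and on 5 to 61 counts per library. Exonic length here is the union of all annotated exons, which lowers the level of a gene with long rare isoforms.

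The proximal promoters are shown with the matches to the kappaB motif that several of them hold. Of the 10 genes, 8 had an entry among the RefSeq promoters (GRCh38.p14), and RELB and IL18 did not. The kappaB consensus, a motif of 10 bases that reads as a different pattern on each strand, was searched on both strands. The 250 bases before the RefSeq start were used. A match was found in 5 of the 8 (62.5%), against 9.57% of 27305 promoters and 11.8% of the 12326 promoters of genes tested here. The genes were picked for their link to NF-kappaB, so this excess cannot be read as a result of these data. In 3 of the 8 the window held 2 or more matches, the overlapping pair of IL32 included, against 1.61% of all promoters. Below, capitals mark matches to the consensus, each sequence is written 5′ to 3′ on the strand of its gene, and bases inside the annotated gene were left off except in the short IL32 window.
NFKBIA, chr14:35404750-35404999, minus strand: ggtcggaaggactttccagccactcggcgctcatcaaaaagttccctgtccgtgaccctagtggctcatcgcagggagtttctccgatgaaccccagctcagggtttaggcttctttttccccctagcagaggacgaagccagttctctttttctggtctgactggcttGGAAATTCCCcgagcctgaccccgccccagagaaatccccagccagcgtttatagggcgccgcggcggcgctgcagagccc
BIRC3, chr11:102317234-102317483, plus strand: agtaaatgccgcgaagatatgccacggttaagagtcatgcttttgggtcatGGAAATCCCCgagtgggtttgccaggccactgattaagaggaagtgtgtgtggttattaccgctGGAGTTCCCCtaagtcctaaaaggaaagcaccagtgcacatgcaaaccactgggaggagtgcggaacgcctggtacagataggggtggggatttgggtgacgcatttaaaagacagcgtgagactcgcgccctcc
TNFAIP3, chr6:137867009-137867213, plus strand: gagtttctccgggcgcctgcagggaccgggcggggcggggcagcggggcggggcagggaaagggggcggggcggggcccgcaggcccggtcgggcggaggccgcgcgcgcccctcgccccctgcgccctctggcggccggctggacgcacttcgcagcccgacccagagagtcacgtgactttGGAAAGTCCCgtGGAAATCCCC
NFKB1, chr4:102501109-102501329, plus strand: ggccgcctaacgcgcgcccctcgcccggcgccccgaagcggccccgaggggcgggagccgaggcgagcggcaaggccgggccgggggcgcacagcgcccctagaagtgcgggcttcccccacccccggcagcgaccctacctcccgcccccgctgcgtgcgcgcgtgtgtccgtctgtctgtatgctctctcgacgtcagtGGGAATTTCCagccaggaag
IL32, chr16:3065295-3065324, plus strand: ctgtactcaGGGAGTTTCCCcagccagctg
Distances are to the RefSeq start. For NFKB1, TNFAIP3 and IL32, 29, 45 and 106 of the bases just before it lie inside the annotated gene. The match lay 81 to 72 bases before the start of NFKBIA and 49 to 40 bases before that of NFKB1. TNFAIP3 held a pair of matches, 67 to 58 and 55 to 46 bases before its start. BIRC3 also held a pair, farther out, at 199 to 190 and 135 to 126 bases. The 2 matches of IL32, 1 for the pattern of each strand, overlap in all but 1 base at either end. They lie 99 to 89 bases before the RefSeq start. The windows of NFKB2, ICAM1 and IL1A hold no match to these letters. A match describes the sequence and is not evidence of binding in these cells. Among the 5 genes with a match, BIRC3 was DE and higher in HCT-8/FU, IL32 was DE and lower, and NFKB1, NFKBIA and TNFAIP3 were not DE there.

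NFKB2, on chromosome 10 from 102394110 to 102402524, showed 100 and 114 CPM in the HCT-8 libraries, 52.1 and 44.5 in HCT-8/FU, 77.5 and 84.8 in HCT-8 CM, and 77.3 and 77.7 in HCT-8/FU CM. Both HCT-8/FU libraries lay below all others and both HCT-8 libraries above all others. The mean fell from 107 ± 9.92 CPM (SD, n = 2) in HCT-8 to 48.3 ± 5.38 CPM in HCT-8/FU, a level 2.19-fold lower (log2 fold change -1.13, SE 0.0991, adjusted p = 5e-07). In the CM comparison the log2 fold change was -0.07 (SE 0.0937, 95% interval -0.271 to 0.129, adjusted p = 0.66). The difference between both comparisons was -1.06 (SE 0.136, adjusted p = 0.00014). HCT-8 cells in their own CM had a lower level than in unconditioned medium, by 1.32-fold, past the FDR and short of the fold threshold (adjusted p = 0.0076, and 0.07 without replicate 2 of HCT-8). From the highest to the lowest, the order was thus HCT-8, HCT-8 CM, HCT-8/FU CM and HCT-8/FU, with the CM groups within their spread of each other.

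RELB, the partner of p52, lies on chromosome 19 from 45001461 to 45038192. Its level was 20 and 18.1 CPM in HCT-8 cells, 9.8 and 10.7 in HCT-8/FU cells, 15.7 and 15.1 in HCT-8 CM, and 15.7 and 14.8 in HCT-8/FU CM. Its groups fell into the same order as those of NFKB2, with no overlap between HCT-8/FU and any other group. RELB was 1.87-fold lower in HCT-8/FU (log2 fold change -0.90, SE 0.147, adjusted p = 0.00017). In the CM comparison its log2 fold change was -0.01 (SE 0.135, 95% interval -0.298 to 0.277, adjusted p = 0.97). The difference between the comparisons was -0.89 (SE 0.199, adjusted p = 0.0085). It missed the FDR without replicate 1 of HCT-8/FU (-0.82, adjusted p = 0.053) and without replicate 1 of HCT-8/FU CM (-0.86, adjusted p = 0.067).

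NFKB1, on chromosome 4 from 102501330 to 102617302, stayed within a narrow range, from 27.1 CPM in replicate 2 of HCT-8 to 36.1 CPM in replicate 1 of HCT-8 CM. The HCT-8/FU libraries, at 30.7 and 34.4 CPM, overlapped those of HCT-8, at 31.9 and 27.1 CPM. Its log2 fold change was 0.15 (SE 0.113, adjusted p = 0.35) in HCT-8/FU and -0.13 (SE 0.106, adjusted p = 0.44) in the CM comparison. The subunits of the non-canonical arm were therefore DE between the lines, while for the p50 precursor the 95% interval was -0.094 to 0.39. With the correction for GC content and length described below, the HCT-8/FU value of NFKB1 was -0.35 (adjusted p = 0.055).

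Of the 2 Rel genes outside the 10, RELA encodes the main canonical activator and REL the subunit best known from lymphocytes. RELA was measured at 85.2 and 94.9 CPM in HCT-8 cells, 56.5 and 50.8 in HCT-8/FU cells, 77.5 and 76.9 in HCT-8 CM, and 66.2 and 64.6 in HCT-8/FU CM. It fell in HCT-8/FU (log2 fold change -0.74, SE 0.0903, adjusted p = 1.2e-05), and in the CM comparison its value was -0.24 (adjusted p = 0.067). With the GC correction the first value was -0.51, short of the fold threshold (adjusted p = 0.0013). REL went the other way, from 4.34 and 4.14 CPM in HCT-8 to 12.3 and 10.5 in HCT-8/FU, and from 1.61 and 1.58 in HCT-8 CM to 8.05 and 7.82 in HCT-8/FU CM. It was 2.75-fold higher in HCT-8/FU (adjusted p = 4.5e-05) and 4.97-fold higher in HCT-8/FU CM (adjusted p = 4.9e-06), and lower in HCT-8 CM than in HCT-8 (log2 fold change -1.40, adjusted p = 0.0011). REL stayed DE with the GC correction, at 0.78 in HCT-8/FU and 1.60 in HCT-8/FU CM on the log2 scale. Per kilobase, REL remained the scarcest of the 5 subunits in every group, with means of 0.0932 to 0.666 CPM per kb, against 9.83 to 16.5 for RELA and 8.65 to 19.2 for NFKB2.

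**Figure D2:**
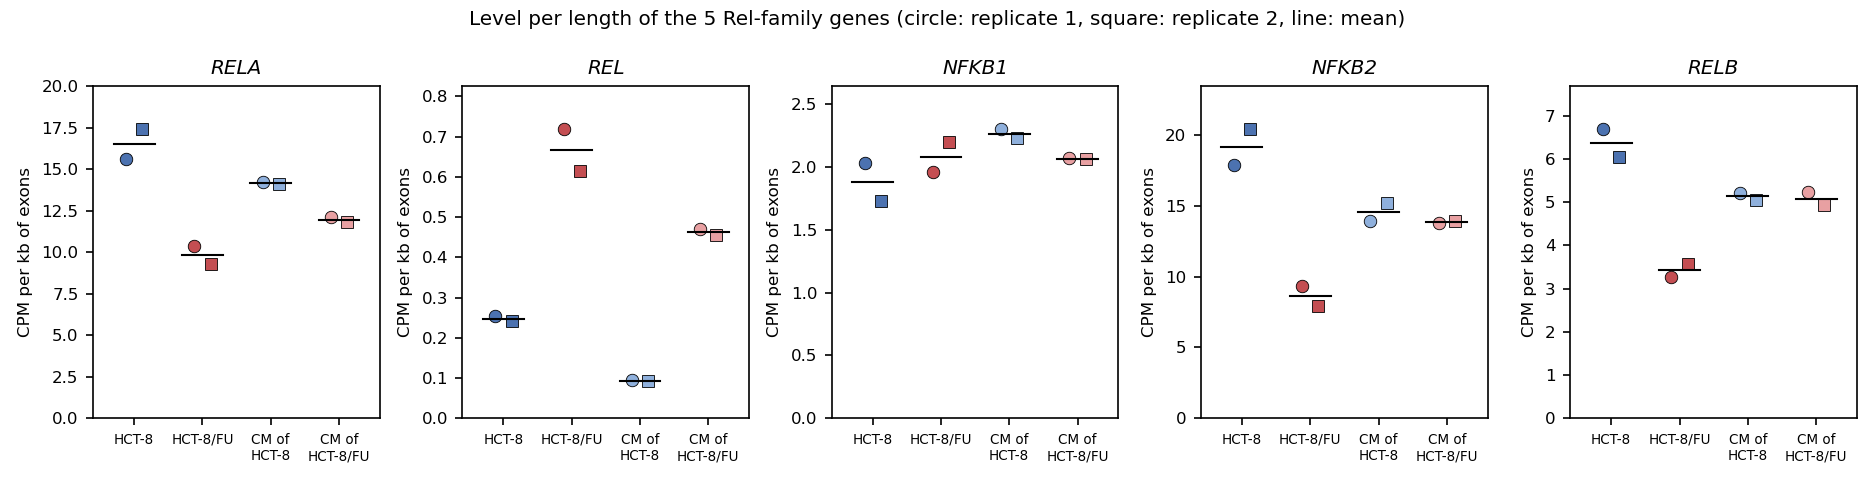
Level of the 5 Rel-family genes in CPM per kilobase of exons (vertical axes, each from 0) in the 4 groups; circles are replicate 1, squares replicate 2 and lines group means. In HCT-8/FU, RELA, NFKB2 and RELB lay below all other libraries and REL above all others, and REL was lowest in HCT-8 CM, at 0.0932 CPM per kb.

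NFKBIA, on chromosome 14 from 35401079 to 35404749, encodes IkappaBalpha, the inhibitor that is broken down and then remade when the pathway is on. Its libraries read 25.5 and 25.6 CPM in HCT-8 cells, 36.1 and 35.6 in HCT-8/FU cells, 52.6 and 44.7 in HCT-8 CM, and 36.4 and 31.2 in HCT-8/FU CM. The lowest values were those of HCT-8 and the highest those of HCT-8 CM, with no overlap of either with another group. HCT-8/FU and HCT-8/FU CM overlapped. NFKBIA rose 1.88-fold in HCT-8 CM against HCT-8 (log2 fold change 0.91, SE 0.115, adjusted p = 8.2e-05). In HCT-8/FU it was 1.4-fold higher than in HCT-8 (log2 fold change 0.49, SE 0.118, adjusted p = 0.0041), and in HCT-8/FU CM 1.43-fold lower than in HCT-8 CM (log2 fold change -0.51, SE 0.108, adjusted p = 0.0033). Both passed the FDR and missed the fold threshold. These opposite directions differed by 1.00 on the log2 scale (SE 0.16, adjusted p = 0.00081). The lower level in HCT-8/FU CM was DE, at a log2 fold change of -0.63, without replicate 2 of HCT-8 CM (adjusted p = 0.00053) or without replicate 1 of HCT-8/FU CM (adjusted p = 0.008). It missed the FDR without replicate 2 of HCT-8/FU CM (-0.41, adjusted p = 0.091) and with the GC correction described below (-0.38, adjusted p = 0.08). The HCT-8/FU value missed the FDR without replicate 2 of HCT-8 (0.46, adjusted p = 0.067) or replicate 1 of HCT-8/FU (0.47, adjusted p = 0.051).

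TNFAIP3, on chromosome 6 from 137867214 to 137883314, encodes A20, which edits ubiquitin chains on signalling complexes. Values were 3.82 to 5.18 CPM in 7 libraries and 6.35 CPM in replicate 2 of HCT-8/FU, the shallowest library. The HCT-8/FU mean of 5.22 ± 1.6 CPM (SD, n = 2) stood beside 3.99 ± 0.126 CPM in HCT-8. The log2 fold change was 0.30 (SE 0.271, adjusted p = 0.44) in HCT-8/FU and -0.25 (SE 0.252, adjusted p = 0.55) in the CM comparison. Neither passed, and the 95% interval for HCT-8/FU ran from -0.28 to 0.878.

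BIRC3, on chromosome 11 from 102317484 to 102339403, encodes cIAP2, a ubiquitin ligase of TNF receptor complexes that blocks cell death signalling. It had 2.63 and 0.887 CPM in HCT-8 cells (20 and 30 counts), 5.18 and 6.52 in HCT-8/FU cells (156 and 39 counts), 1.73 and 1.28 in HCT-8 CM (15 and 34 counts), and 3.53 and 3.34 in HCT-8/FU CM (110 and 103 counts). Every library of HCT-8/FU and HCT-8/FU CM lay above every library of HCT-8 and HCT-8 CM, but the HCT-8 pair had a coefficient of variation of 70.2%. BIRC3 rose 4.01-fold in HCT-8/FU (log2 fold change 2.00, SE 0.416, adjusted p = 0.0013) and 2.39-fold in HCT-8/FU CM (log2 fold change 1.26, SE 0.399, adjusted p = 0.039). The difference between these rises was 0.75 (SE 0.583, adjusted p = 0.49). The first value depended on replicate 2 of HCT-8: without it the log2 fold change was 1.08 (adjusted p = 0.066), and without replicate 1 of HCT-8 it was 2.67. The CM value missed the FDR without replicate 2 of HCT-8 CM (0.99, adjusted p = 0.2), replicate 1 (1.21, adjusted p = 0.17) or 2 (1.29, adjusted p = 0.13) of HCT-8/FU CM, and replicate 1 (adjusted p = 0.057) or 2 (adjusted p = 0.052) of HCT-8/FU. BIRC2, the neighbouring paralog that encodes cIAP1, was looked up after the values were seen. It was DE and higher in HCT-8/FU (log2 fold change 1.00, adjusted p = 7.1e-06) and in HCT-8/FU CM (0.79, adjusted p = 0.00015). With the GC correction these values were 0.50 and 0.34, neither DE.

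**Figure D3:**
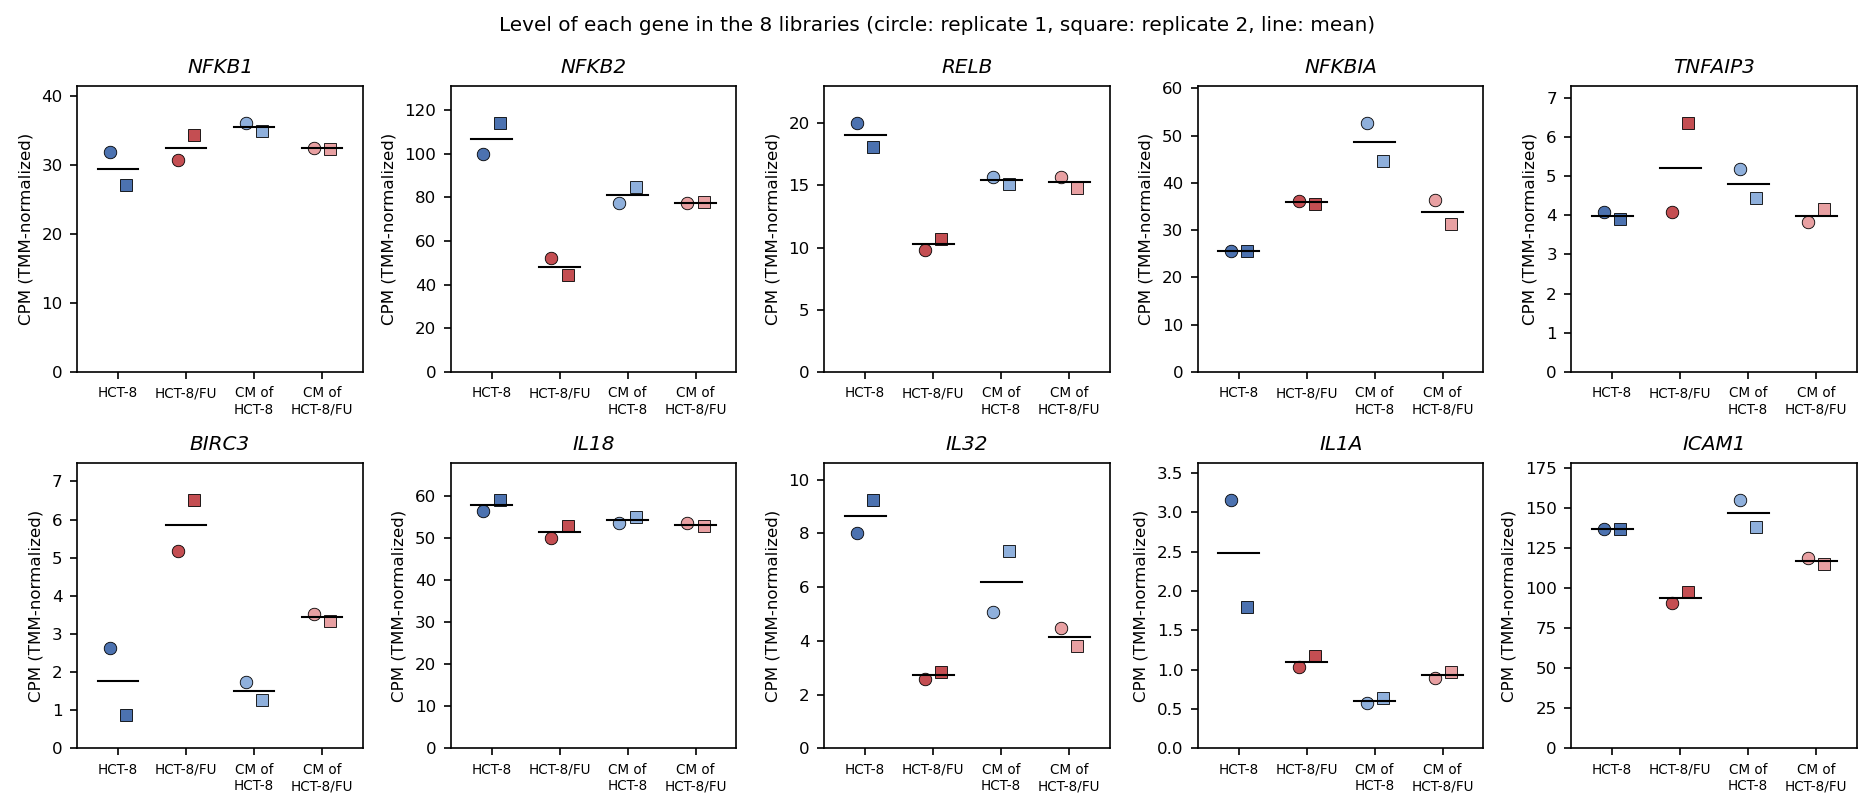
Level of each of the 10 genes in CPM after TMM normalization (vertical axes, each from 0) in the 8 libraries by group; circles are replicate 1, squares replicate 2 and lines group means. IL32 and NFKB2 were lowest in both HCT-8/FU libraries, NFKBIA was highest in both HCT-8 CM libraries, and IL18 lay between 50 and 59 CPM throughout.

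IL32 encodes a cytokine that itself induces other inflammatory cytokines, and lies on chromosome 16 from 3065297 to 3082192. It was present at 8.03 and 9.25 CPM in HCT-8 cells (61 and 313 counts), 2.59 and 2.84 in HCT-8/FU cells (78 and 17 counts), 5.06 and 7.35 in HCT-8 CM (44 and 195 counts), and 4.49 and 3.79 in HCT-8/FU CM (140 and 117 counts). All 4 groups were separate, in the order HCT-8, HCT-8 CM, HCT-8/FU CM and HCT-8/FU. It fell 3.28-fold in HCT-8/FU (log2 fold change -1.72, SE 0.257, adjusted p = 8.2e-05). In the CM comparison it was 1.55-fold lower without passing the FDR (log2 fold change -0.63, SE 0.228, adjusted p = 0.067), and without replicate 1 of HCT-8 CM it was DE (-0.82, adjusted p = 0.017). The difference between the comparisons was -1.09 (SE 0.344, adjusted p = 0.054). It passed without replicate 2 of HCT-8 CM (-1.45, adjusted p = 0.011). Between HCT-8 CM and HCT-8 the log2 fold change was -0.45 (SE 0.228, adjusted p = 0.2). IL32 had the widest range of group means of those of the 10 genes with at least 5 CPM, 1.63 on the log2 scale. Of 11689 candidate genes, those nearest to its pattern over the 8 libraries were C22orf23, OSER1-DT and ZFAND2A, with root mean square differences of 0.179, 0.199 and 0.2 in log2 CPM after centring.

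IL18, on chromosome 11 from 112143253 to 112164096, is made as a precursor that an inflammasome caspase cuts. At 56.3 and 59 CPM in HCT-8 cells, 50 and 52.7 in HCT-8/FU cells, 53.5 and 55 in HCT-8 CM, and 53.5 and 52.7 in HCT-8/FU CM, it was the least variable of the 3 interleukins. The HCT-8/FU libraries lay below those of HCT-8 by less than the fold threshold (log2 fold change -0.18, SE 0.0884, adjusted p = 0.13). In the CM comparison the log2 fold change was -0.03 (SE 0.0846, adjusted p = 0.84), with a 95% interval of -0.214 to 0.148.

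IL1A, on chromosome 2 from 112773925 to 112784493, encodes an alarmin that acts through the IL-1 receptor when cells are damaged. It rested on few counts, with 3.16 and 1.8 CPM in HCT-8 cells (24 and 61 counts), 1.03 and 1.17 in HCT-8/FU cells (31 and 7 counts), 0.575 and 0.64 in HCT-8 CM (5 and 17 counts), and 0.898 and 0.973 in HCT-8/FU CM (28 and 30 counts). Both HCT-8 libraries were above all others. IL1A fell 3.75-fold in HCT-8 CM against HCT-8 (log2 fold change -1.91, SE 0.49, adjusted p = 0.013). That call was lost without replicate 1 of HCT-8 (-1.54, adjusted p = 0.076) and without replicate 2 of HCT-8 CM (adjusted p = 0.061), where the fold stayed as large. In HCT-8/FU the level was 2.17-fold lower with an adjusted p of 0.076 (log2 fold change -1.12, SE 0.467), and in HCT-8/FU CM it was 1.51-fold higher with an adjusted p of 0.45.

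ICAM1, on chromosome 19 from 10271093 to 10286615, encodes an adhesion molecule that binds leukocyte integrins. Its libraries showed 137 and 137 CPM in HCT-8 cells, 90.5 and 97.4 in HCT-8/FU cells, 155 and 138 in HCT-8 CM, and 119 and 115 in HCT-8/FU CM. HCT-8/FU lay below all other groups, and HCT-8/FU CM below both groups without HCT-8/FU or its medium. The level was 1.46-fold lower in HCT-8/FU (log2 fold change -0.55, SE 0.0824, adjusted p = 8.1e-05) and 1.24-fold lower in HCT-8/FU CM (-0.31, SE 0.079, adjusted p = 0.011). Both passed the FDR and missed the fold threshold, which the first crossed without replicate 2 of HCT-8 (-0.58, adjusted p = 0.0029) or without replicate 2 of HCT-8/FU (-0.60, adjusted p = 0.00046). With the GC correction the values were -0.35 (adjusted p = 0.036) and -0.17 (adjusted p = 0.42). The second also missed the FDR without replicate 2 of HCT-8 (adjusted p = 0.086), replicate 1 (adjusted p = 0.082) or 2 (adjusted p = 0.15) of HCT-8/FU CM, with the other scaling reference (adjusted p = 0.055) and with only the groups compared (adjusted p = 0.091). Of its exonic bases, 25.41% lie opposite exons of ICAM4-AS1 and LIMASI. Whether counting used the strand is not stated, so reads from ICAM1 and from these antisense genes cannot be told apart there. Antisense exons also cover 1.684% of the exonic bases of BIRC3 and 1.474% of those of TNFAIP3, a gene on the same strand covers 4.02% of those of IL32, and the other 6 genes share no exonic bases.

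The GC content of a gene moved with its fold change across the whole transcriptome. Over 19857 genes, Spearman's rho of GC content with each library's log2 deviation from the 8-library average was -0.488 and -0.452 in HCT-8/FU, 0.0517 and 0.215 in HCT-8, 0.375 and 0.534 in HCT-8 CM, and -0.0652 and -0.0619 in HCT-8/FU CM. Genes are not independent replicates. The 1506 genes within 2 percentage points of the 36.6% GC of BIRC3 had a median log2 fold change of 0.719 in HCT-8/FU, and 97.6% of them lay below the value of BIRC3. For NFKB2, with 61.6% GC, the median of 1877 such genes was -0.261, and 5.17% of them lay below NFKB2. For IL32, with 58.3% GC, it was -0.216, and 1.67% lay below. For RELB, with 63.2% GC, it was -0.255, and 8.91% lay below. All of these genes were called DE partly for the size of their change, so their distance from genes of like composition is no separate evidence. In HCT-8/FU CM the genes near the GC content of BIRC3 had a median of 0.642, and 83.9% of them lay below BIRC3. The part of GC content in each value was not tested beyond a correction for GC content and length, which removes any change that follows them, whatever its origin. Over all genes it took the DE calls in HCT-8/FU from 2677 higher and 1648 lower to 1394 higher and 1626 lower (15.2% of genes), and in HCT-8/FU CM from 1619 and 259 to 474 and 464 (4.72%). With it, NFKB2 (-0.90), RELB (-0.68), IL32 (-1.49) and BIRC3 (1.32, adjusted p = 0.033) stayed DE in HCT-8/FU, and NFKBIA (0.65, adjusted p = 0.003), IL18 (-0.59, adjusted p = 0.00085) and IL1A (-1.69, adjusted p = 0.017) were also DE. In HCT-8/FU CM, BIRC3 was no longer DE (0.59, adjusted p = 0.44) and NFKB1 was (-0.64, adjusted p = 0.0046). The differences between the comparisons stayed DE for NFKB2 (-0.93) and NFKBIA (1.02) and not for RELB (-0.79, adjusted p = 0.062).

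**Figure D4:**
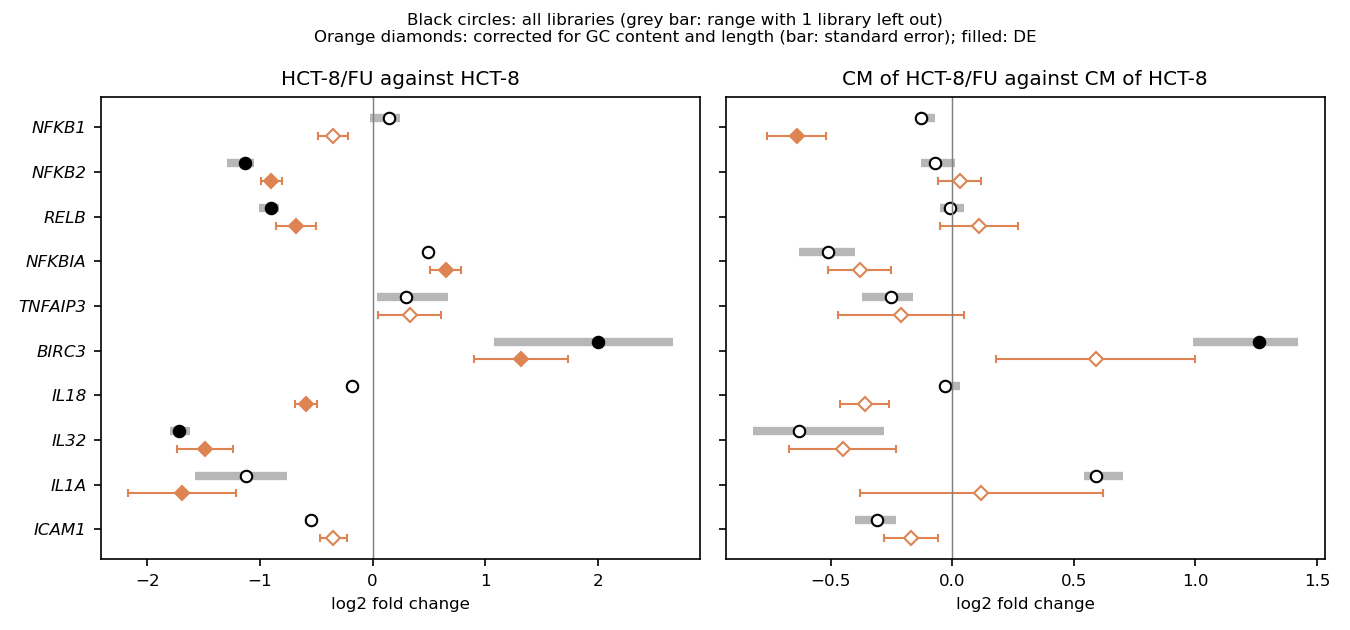
Log2 fold change (horizontal axis) of the 10 genes (rows) in HCT-8/FU against HCT-8 and in HCT-8/FU CM against HCT-8 CM, without correction (black circles, with the range when 1 library is left out as a grey bar) and with correction for GC content and length (orange diamonds, with standard errors); filled symbols were DE. NFKB2, RELB, IL32 and BIRC3 were filled both ways in HCT-8/FU, while in the CM comparison the DE gene was BIRC3 at 1.26 before and NFKB1 at -0.64 after correction.

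The wider pathway was followed with a list of 98 genes in 7 roles, which holds none of the 10. Of these, 97 were matched by symbol, SOD2 was not used here, and 77 passed the filter on low counts. In HCT-8/FU against HCT-8, 24 of the 77 were DE, 10 higher and 14 lower, with a median log2 fold change of -0.091. In HCT-8/FU CM against HCT-8 CM, 10 were DE, 9 higher and 1 lower, with a median of -0.044. In HCT-8 CM against HCT-8, 7 were DE, 1 higher and 6 lower. These counts stand beside the 21.3%, 9.25% and 8.15% of all genes that were DE. The split of the first count was 4 higher and 10 lower with the correction for GC content and length, 13 higher and 10 lower with replicate 2 of HCT-8 CM as the scaling reference, and 6 higher and 15 lower without replicate 2 of HCT-8, so which direction held more genes depended on the scaling. With the GC correction the second count was 4, and without replicate 2 of HCT-8 CM it was 7 higher and 4 lower.

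Of the inducers best known for turning the pathway on, TNF had 1 count over all 8 libraries and IL1B 1 to 17 counts a library. IL6, another ligand of the list, had 0 to 3 counts a library. All of these are named after their counts were seen, and none passed the filter. Of 7 ligands and antagonists tested, 3 were DE and higher in HCT-8/FU, beside 13.2% higher over all genes, and 2 with the GC correction. IL33, an alarmin of the IL-1 family, had means of 59 CPM in HCT-8 cells, 179 in HCT-8/FU cells, 78.4 in HCT-8 CM and 130 in HCT-8/FU CM. It rose 3.04-fold in HCT-8/FU (adjusted p = 2.2e-08) and 1.68-fold in HCT-8/FU CM (adjusted p = 4e-05). With the GC correction the log2 fold changes went from 1.60 to 0.88 and from 0.75 to 0.05, the second with an adjusted p of 0.83. IL33 and IL1A, both of the IL-1 family, thus had opposite signs in HCT-8/FU, with IL1A not passing.

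Among 12 receptors tested, the HCT-8/FU cells had 2 higher and 3 lower, and 3 were higher in HCT-8/FU CM. Over all genes the HCT-8/FU cells had 13.2% higher and 8.12% lower, and HCT-8/FU CM had 7.97% higher. IL6ST, the signal-transducing chain shared by receptors of the IL-6 family, rose in HCT-8/FU (log2 fold change 1.25, adjusted p = 7.5e-07) and in HCT-8/FU CM (1.55, adjusted p = 7e-07). The GC correction brought these values to 0.51, short of the fold threshold, and 0.79. IL6ST was also DE and lower in HCT-8 CM than in HCT-8 (-0.92, adjusted p = 0.00012). Among 25 adaptors, ubiquitin ligases and kinases, the HCT-8/FU cells had 3 higher and 1 lower, a smaller share than the 21.3% of all genes that were DE, and 1 lower alone with the GC correction. The lower one was RBCK1, which encodes HOIL-1 of the linear ubiquitin ligase complex, with means of 424 CPM in HCT-8 and 168 in HCT-8/FU (log2 fold change -1.33, adjusted p = 3e-08). TBK1, a kinase related to the IkappaB kinases, was DE and higher in HCT-8/FU (0.64, adjusted p = 0.0014) and in HCT-8/FU CM (0.82, adjusted p = 0.00038), at -0.03 (adjusted p = 0.89) and 0.13 (adjusted p = 0.63) with the GC correction. The first call was also lost without replicate 2 of HCT-8 (0.44) or replicate 1 of HCT-8/FU (0.57). TBK1 was lower in HCT-8 CM than in HCT-8 by the FDR alone (-0.50, adjusted p = 0.02).

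Of the 7 other Rel subunits and IkappaB proteins, 3 were DE and lower in HCT-8/FU, namely RELA, NFKBIB and BCL3, and 1 was higher, REL. Over all genes 8.12% were lower and 13.2% higher there, and with the GC correction this role had 1 lower and 1 higher. In the CM comparison REL alone was DE, beside 9.25% of all genes. None of 7 other negative regulators was DE in HCT-8/FU by edgeR or by DESeq2, beside 21.3% of all genes by edgeR. By edgeR, 5 passed the FDR (and 5 an unadjusted p of 0.05), beside 36.7% of all genes past the FDR. In HCT-8/FU CM 4 passed the FDR, beside 19.7% of all genes, and 1 was DE, beside 9.25%. The DE one was TAX1BP1, an adaptor of A20 (0.63, adjusted p = 0.0035). It missed the fold threshold without replicate 2 of HCT-8 CM (0.37) or replicate 2 of HCT-8/FU CM (0.56), and both thresholds with the GC correction (0.32, adjusted p = 0.19). TAX1BP1 was also lower in HCT-8 CM than in HCT-8 by the FDR alone (-0.44, adjusted p = 0.033). Of 13 target genes tested, 5 were lower and 1 higher between the lines, with a median of -0.442, beside 8.12% lower, 13.2% higher and a median of 0.008 over all genes. The target genes that were DE were 3 lower and none higher with the GC correction, and 2 lower and 1 higher with replicate 2 of HCT-8 CM as the scaling reference. LCN2, an iron-scavenging protein of epithelia, fell 2.98-fold in HCT-8/FU (adjusted p = 1.6e-07) and 1.62-fold in HCT-8/FU CM (adjusted p = 0.00038), where the GC correction left it short of DE (log2 fold change -0.58, adjusted p = 0.048). Of 6 genes of interleukin processing, 2 were lower in HCT-8/FU, CASP5 and NLRP1, beside 8.12% lower over all genes. With the GC correction 3 were lower. CASP5 averaged only 0.928 CPM (log2 fold change -2.66, SE 0.667). Both genes were also DE and lower in HCT-8 CM against HCT-8 (CASP5 -2.78, NLRP1 -0.84), beside 4.29% of all genes. NLRP1, an inflammasome sensor, went from 20.6 ± 1.43 CPM (SD, n = 2) in HCT-8 to 8.08 ± 1.73 CPM in HCT-8/FU (log2 fold change -1.29, adjusted p = 2.5e-05), while CASP1, the inflammasome caspase best known for cutting IL18, had at most 1 count in a library. CASP4, an inflammatory caspase that can also cut IL18, averaged 30.3 CPM and was lower in HCT-8/FU by the FDR alone (log2 fold change -0.45, adjusted p = 0.0047). It is named after its values were seen.

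**Figure D5:**
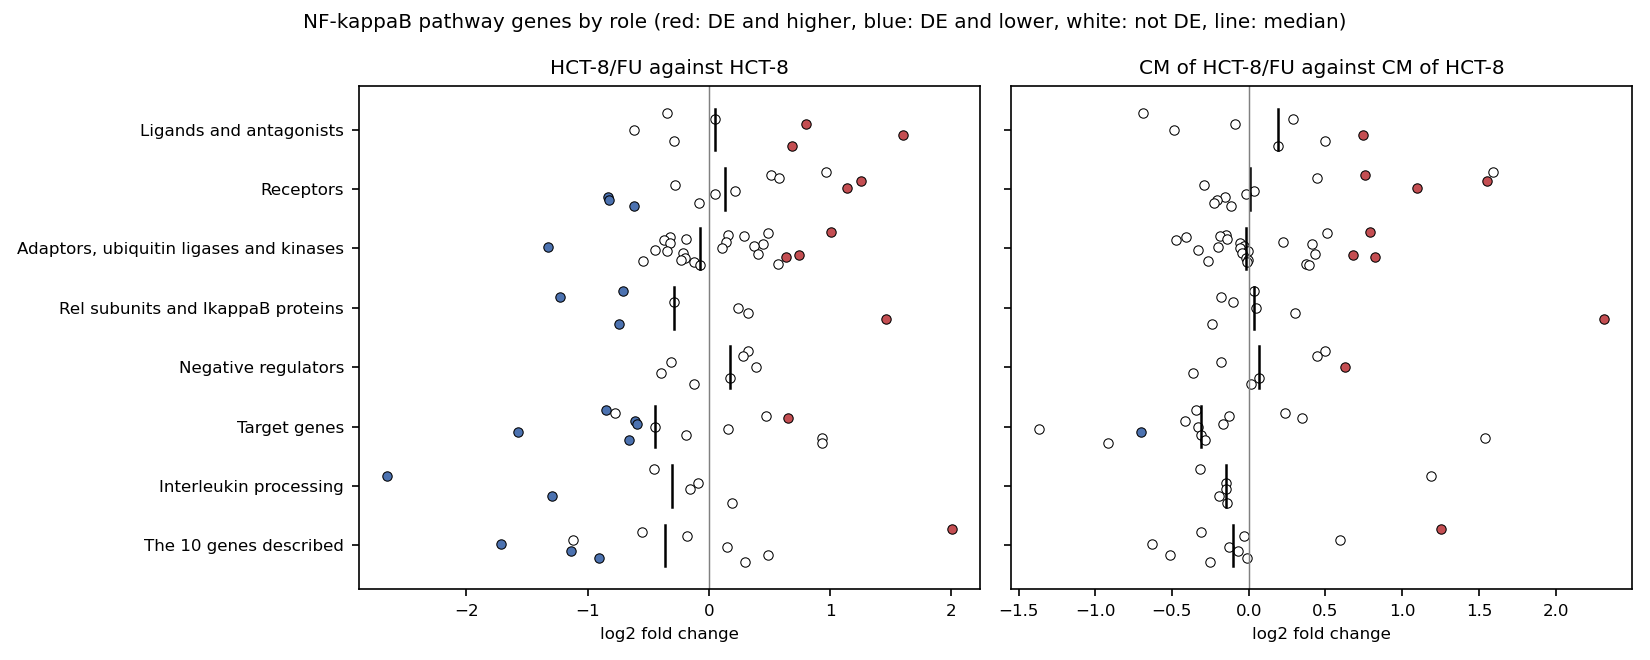
Log2 fold change (horizontal axis) of the 77 tested genes of the pathway list by role, and of the 10 genes described, in HCT-8/FU against HCT-8 (left) and HCT-8/FU CM against HCT-8 CM (right); red points were DE and higher, blue DE and lower, white not DE, and black lines are medians. Target genes had a median of -0.442 on the left and -0.31 on the right, and REL, at 2.31, was the highest point on the right.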

How the data were processed

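Poly(A) RNA-seq of 8 libraries was used. The authors used HISAT2 (GRCh38) for alignment and HTSeq 0.11.2 with an Ensembl annotation for counts per gene; the deposited values are raw counts, with no strand setting given. Records that name no gene, 59.2% to 70.3% of a library, were left out of totals and tests. The 2 deposited tables of the authors' own comparisons hold fold changes and p-values and were not used.

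Counts were analysed with edgeR 4.0.16 in R 4.3.3: TMM with HCT-8 replicate 2 as reference, filterByExpr (20305 genes), 4 group means, glmQLFit and glmQLFTest, and Benjamini-Hochberg adjustment over all tested genes, to which every adjusted p refers. The SE of a fold change was its size on the log2 scale over the root of its F statistic. DE meant an FDR of at most 0.05 and a log2 fold change of at least 0.58 in size, the study's thresholds. Groups of 2 allow no permutation p below 0.333, so none was run. Nothing says that replicates came from separate cultures, so p-values measure the spread between these libraries, which may be technical. Replicates differed by more than sampling noise in every group, with a median chi-square per gene of 1.02 to 2.3 against 0.455 for noise alone.

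Positions, exonic length and GC content are from GENCODE 44 on the same build, where 56105 of 64253 identifiers were found. Promoters are from RefSeq. All 10 genes are named, and of the pathway list, per role, the DE gene with the largest change among those with a mean of at least 5 CPM and groups that do not overlap, in each of the first 2 comparisons, beside RELA and REL. The genes and lists were chosen with earlier results of these data known. The alternatives were DESeq2 1.42.0, its size factors, other filters, only the groups compared, a replicate block, offsets for GC content and length (splines with 5 degrees of freedom), FDR alone, a term for the 3 libraries with many unaligned records, another TMM reference and leaving out each library. A fit of the other 5 libraries was added after the data were seen. The edgeR code was checked on simulated counts.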

Additional observations from a re-analysis of the deposited data

Results flagged for a closer look

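The changes in HCT-8/FU against HCT-8 and in HCT-8/FU CM against HCT-8 CM were compared by edgeR's test of the difference. Adjustment was by Benjamini-Hochberg, and values are the first log2 fold change minus the second. The difference was DE for 3 of the 10 genes and 10 of the 77 tested genes of the pathway list, beside 7.69% of all genes. The 4 genes of the list given here were named for the size of their change in these comparisons, so their differences are no separate evidence. For NFKB2 the difference was -1.06 (SE 0.136, adjusted p = 0.00014), with both HCT-8/FU libraries below both HCT-8 libraries and the CM groups within their spread. For RELB it was -0.89 (SE 0.199, adjusted p = 0.0085), a call lost with the correction for GC content and length (-0.79, adjusted p = 0.062), without replicate 1 of HCT-8/FU (adjusted p = 0.053) and without replicate 1 of HCT-8/FU CM (adjusted p = 0.067). NFKBIA, at 1.00 (SE 0.16, adjusted p = 0.00081), was the gene of the 10 with opposite signs that each passed the FDR, though with the correction the CM value did not (-0.38, adjusted p = 0.08) and the difference stayed DE (1.02, adjusted p = 0.0044). In the pathway list the difference was 0.86 for IL33 (SE 0.134, adjusted p = 0.00067), -1.12 for RBCK1 (SE 0.116, adjusted p = 2.1e-05), -0.88 for LCN2 (SE 0.164, adjusted p = 0.0026) and -1.10 for NLRP1 (SE 0.235, adjusted p = 0.0068).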

How the results depend on the processing

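In HCT-8/FU against HCT-8, 4 of the 10 genes were DE under every alternative except 7 with the correction for GC content and length, with or without the replicate block, 6 by FDR alone, 5 in the 5 libraries with under 15% not aligned, and 4 to 5 when 1 library was left out. In the HCT-8/FU CM comparison the count of 1 became 3 by FDR alone, 2 with a term for libraries with over 15% not aligned, 2 in the 5 libraries, and 0 to 2 with 1 library left out. In HCT-8 CM against HCT-8 the count of 2 became 1 with DESeq2, where IL1A had no adjusted p, 1 with the GC correction and the replicate block (IL1A -1.74, adjusted p = 0.056), and 1 to 2 with 1 library left out. The difference between the comparisons was DE for 2 to 4 genes, with IL32 the gene gained and RELB the gene lost. With the replicate block alone these counts were 4, 1, 2 and 3, and it changed no call among the 10 genes. Correlations between groups of the deviations of same-numbered libraries from their group mean were -0.123 to 0.132. These cannot decide whether equal numbers mark a shared batch, since the libraries with many unaligned records carry different replicate numbers. A library left alone in its group was assumed to vary like the others. Equal counts did not always mean the same genes. In HCT-8/FU without replicate 2 of HCT-8, BIRC3 (1.08) left the DE genes and ICAM1 (-0.58) joined them. Over all genes, 36.7% in HCT-8/FU and 19.7% in HCT-8/FU CM passed by FDR alone, and 15.2% and 4.72% were DE with the GC correction.

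Some signs turned. In HCT-8/FU, NFKB1 was -0.35 with the GC correction and with it plus the block (-0.35), and -0.02 to 0.24 with 1 library left out, while TBK1, DE at 0.64, was -0.03 and -0.05 with these corrections. In HCT-8/FU CM, NFKB2 was 0.02 with only the groups compared, 0.03 with the GC correction, with or without the block, 0.01 with the other TMM reference, and -0.13 to 0.01 with 1 library left out. RELB was there 0.03 with DESeq2's size factors, 0.02 without a filter, 0.03 with DESeq2, 0.08 with only the groups compared, 0.11 with the GC correction, 0.10 with it and the block, 0.03 with the not-aligned term, 0.07 with the other TMM reference, 0.01 in the 5 libraries, and -0.05 to 0.05 with 1 library left out. IL18 was 0.01 with DESeq2 and with its size factors alone, 0.06 with only the groups compared, 0.05 with the other reference, and -0.05 to 0.03 with 1 library left out. In HCT-8 CM against HCT-8, BIRC3 was -0.03 with DESeq2's size factors, -0.13 with DESeq2, -0.08 with only the groups compared and -0.95 to 0.69 with 1 library left out; with the GC correction IL18 was 0.01 with or without the block, and ICAM1 -0.04 and -0.05. The difference between the comparisons for BIRC3, 0.75 with all libraries, was -0.24 to 1.41 with 1 library left out. The cause of these changes was not tested. Of the 77 tested genes of the pathway list, 42, 24 and 23 passed the FDR alone in the 3 comparisons, beside 36.7%, 19.7% and 19.4% of all genes. With the GC correction 5 in place of 10 differed between the first 2, beside 6.19% in place of 7.69% of all genes. Depth limits IL1A, BIRC3, TNFAIP3 and IL32, with 5 to 313 counts a library.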
